A study of Mus musculus with 22 samples.

Results

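The chaperone and co-chaperone genes described here are 64 genes of the 11208 in the study's table of normalized counts. They were chosen by symbol alone: the heat shock protein families HSP70, HSP90, HSP110, HSP60 with HSP10 and the small heat shock proteins, the J-domain families DNAJA, DNAJB and DNAJC, and the subunits of the chaperonin CCT. The rule itself reads no measured value. The set holds 8 HSP70 genes, 3 HSP110 genes, 3 HSP90 genes, 3 small heat shock protein genes, Hspd1 and Hspe1, 8 CCT subunit genes, 4 DNAJA, 9 DNAJB and 23 DNAJC genes, and the processed pseudogene Hspd1-ps3. Hspb11 carries a small heat shock protein's symbol but is best known as a subunit of the intraflagellar transport complex. A further 33 symbols of the GENCODE M21 annotation fit the same rule and were not analysed here, among them Hspa1a and Hspb1.

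Molecular chaperones bind unfolded or partly folded proteins and keep them from aggregating. HSP70 proteins bind and release exposed stretches of a client in a cycle driven by ATP; J-domain proteins bring clients and trigger ATP hydrolysis, and HSP110 proteins exchange the nucleotide. HSP90 acts on later folding states, among them kinases and steroid receptors, and CCT (also called TRiC) is a double ring that encloses newly made proteins such as actin and tubulin. Separate members serve the endoplasmic reticulum (Hspa5, Hsp90b1) and the mitochondrial matrix (Hspa9, Hspd1, Hspe1).

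The cells were NIH/3T3, an established mouse fibroblast line. A construct for doxycycline-inducible expression of the transcription factor E2F1, or an empty vector (EV), had been stably integrated; whether each line is 1 clone is not given in the labels. Both lines were first starved for 48 h in 0.25% serum, and the libraries labelled 0 h were taken at that point. The E2F1 line and the EV line then received doxycycline at 500 ng/ml for 2, 6 or 12 h, or the EV line received 10% serum for 2, 6 or 12 h, so that all 11 groups shared the starvation and every group carried an integrated construct. Polyadenylated RNA of 2 libraries per group was sequenced (22 libraries), and the serum times are compared here with the EV libraries at 0 h. The labels do not say that replicates were separate cultures, so the p-values measure the spread between libraries, which may be technical.

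Normalized counts summed to between 34014608 and 46057140 per library, and replicates differed at the median gene by 0.10 to 0.16 on the log2 scale. All 12 fibroblast markers listed for the check (Col1a1, Fn1, Vim and others) were in the table, against 0 of 4 epithelial and 0 of 3 endothelial markers; of 3 leukocyte markers only Cd14 was, at 62 to 395. The summed fibroblast markers fell from 1111452 and 1121624 in the E2F1 line at 0 h to 696764 and 724781 at 12 h, and in serum from 1179460 and 1234741 to 813694 and 980741 at 12 h; their part in the results below was not tested. The starved E2F1 line had E2f1 counts of 1703 and 1637, which were 1535 and 1755 after 2 h, 3806 and 3602 after 6 h and 2683 and 2845 after 12 h. The species of the construct is not given in the labels, so these counts on the mouse gene may not hold the construct's own transcript. In the EV line under doxycycline it stayed between 1307 and 1655. The libraries of the 2 h groups stood apart for Ddx3y, a Y-linked gene that separates the lines: at 2 h the EV line had 103 and 71 with doxycycline and 132 and 170 with serum, against 9 and 4 at 0 h and 580 and 521 in the E2F1 line at 0 h. In the E2F1 line at 2 h it was 329 and 316. Its part in the 2 h results was not tested. In bulk RNA, fewer cells with a transcript and less of it per cell cannot be told apart.

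Promoters of 52 of the 64 genes were matched by symbol to RefSeq (GRCm38.p6), as 69 windows from 250 bases before to 50 bases after an annotated start site. The ER stress element, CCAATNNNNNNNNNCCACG on either strand, lay in the promoters of 3 members, Hspa5, Dnajc3 and Hsp90b1, in 0.119% of all 32851 promoters searched and in 0.118% of the 11012 of genes in the table. The copies are shown because the 3 genes are among the members with the largest change in the study; the element is in capitals, and the second copy in Hsp90b1 lies on the other strand.
Hspa5, + strand, chr2:34772020-34772048: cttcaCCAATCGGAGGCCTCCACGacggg
Dnajc3, + strand, chr14:118937822-118937850: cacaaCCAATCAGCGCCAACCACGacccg
Hsp90b1, distal copy, - strand, chr10:86705633-86705661: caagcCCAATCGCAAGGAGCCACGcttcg
Hsp90b1, proximal copy, - strand, chr10:86705528-86705556: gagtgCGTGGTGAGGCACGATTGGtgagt

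The Hsp90b1 promoter, the only one of the 52 with 2 copies, is shown over a longer stretch, from 250 to 71 bases before the start site (GRCm38.p6, - strand, chr10:86705515-86705694).
Hsp90b1: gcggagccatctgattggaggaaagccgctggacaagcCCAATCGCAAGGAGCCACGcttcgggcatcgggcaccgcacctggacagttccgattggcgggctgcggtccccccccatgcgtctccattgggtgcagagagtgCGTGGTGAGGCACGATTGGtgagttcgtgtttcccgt

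The binding unit of heat shock factor, searched as GAANNTTCNNGAA on either strand, was found in the promoters of Hspd1, Hspe1, Dnajb6 and Hsph1, 4 members of the 52, in 0.603% of all promoters and in 0.472% of those of genes in the table. Hspd1 and Hspe1 are transcribed head to head from the same stretch of chromosome 1, so that the stretch shown for Hspe1 is also the one found for Hspd1, where 2 overlapping matches run together.
Hspe1, + strand, chr1:55088054-55088081: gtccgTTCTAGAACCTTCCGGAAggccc
Dnajb6, + strand, chr5:29735844-29735871: agctccgaGAATCTTCCGGAAcgctaga
Hsph1, - strand, chr5:149636281-149636308: gctgcagaTTCTGGAAAGTTCtcctcag

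An E2F site, searched as TTTGGCGC, TTTCCCGC, TTTGCCGC or TTTCGCGC on either strand, lay in the promoters of Cct3, Dnajb9, Dnajc19, Dnajc9 and Tcp1, 5 members of the 52, in 2.26% of all promoters and in 4.21% of those of genes in the table. The copies of Dnajc9, Tcp1 and Cct3 are printed because these genes were called at 6 h and 12 h of E2F1 induction. A match of letters is a description and says nothing about binding.
Dnajc9, - strand, chr14:20388861-20388888: cgcccagagttatttggGCGGGAAAagg
Tcp1, + strand, chr17:12916261-12916288: cgttttccacTTTCGCGCctttcttcta
Cct3, + strand, chr3:88296901-88296928: ctgcccgtgcTTTGGCGCttgcgcagac

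Every change below is a difference of log2(normalized count + 1), a scale on which low genes change by less than their true ratio, and a gene is said to have risen or fallen where the limma test gave an adjusted p under 0.05 over all 11208 genes. After 6 h of E2F1 induction 22 of the 64 genes rose and 10 fell against 0 h, shares of 34.4% and 15.6%, where 28.8% of all genes rose and 22.9% fell. After 12 h 23 rose and 13 fell, against 31.8% and 29.7% of all genes. Serum raised far more of them: 43 of 64 rose and 10 fell after 2 h (all genes: 37.5% and 33.5%), 44 rose and 8 fell after 6 h (36.5% and 31.0%), and 41 rose and 11 fell after 12 h (36.0% and 29.7%). The median change of the 64 genes was 0.03 and 0.08 at 6 h and 12 h of E2F1 and 0.51, 0.58 and 0.48 at the serum times, while the median of all genes lay within 0.05 of 0. In serum 38 members rose at all 3 times and 7 fell at all 3, shares of 59.4% and 10.9% beside 22.9% and 17.1% of all genes. Under E2F1 18 rose and 9 fell at both 6 h and 12 h, shares of 28.1% and 14.1% beside 23.5% and 16.8%. Hsp90ab1 and Dnaja1 were called at none of these 5 comparisons, and the share of all genes called at none was not counted.

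Other scalings moved the balance of rises and falls, of the members and of all genes. With equal library totals 16 rose and 17 fell at E2F1 6 h, and 19 and 18 at 12 h; with quantile normalization the counts were 15 and 21 at 6 h and 16 and 21 at 12 h. At serum 2 h they were 30 and 18 with equal totals and 34 and 14 with quantile normalization, and at serum 6 h 36 and 13 with equal totals. Of all 11208 genes 2683 rose and 3781 fell at E2F1 6 h with equal totals, and 3280 and 3775 at 12 h. With quantile normalization all genes gave 2657 and 3820 at 6 h and 3131 and 4122 at 12 h. At serum 2 h all genes gave 2611 and 5907 with equal totals and 3622 and 4116 with quantile normalization. At serum 6 h all genes gave 2914 and 4772 with equal totals. With equal totals the median of all genes shifted by -0.12 at E2F1 6 h, -0.37 at serum 2 h and -0.21 at serum 6 h, so small rises at 2 h of serum are relative to that choice.

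**Figure D1:**
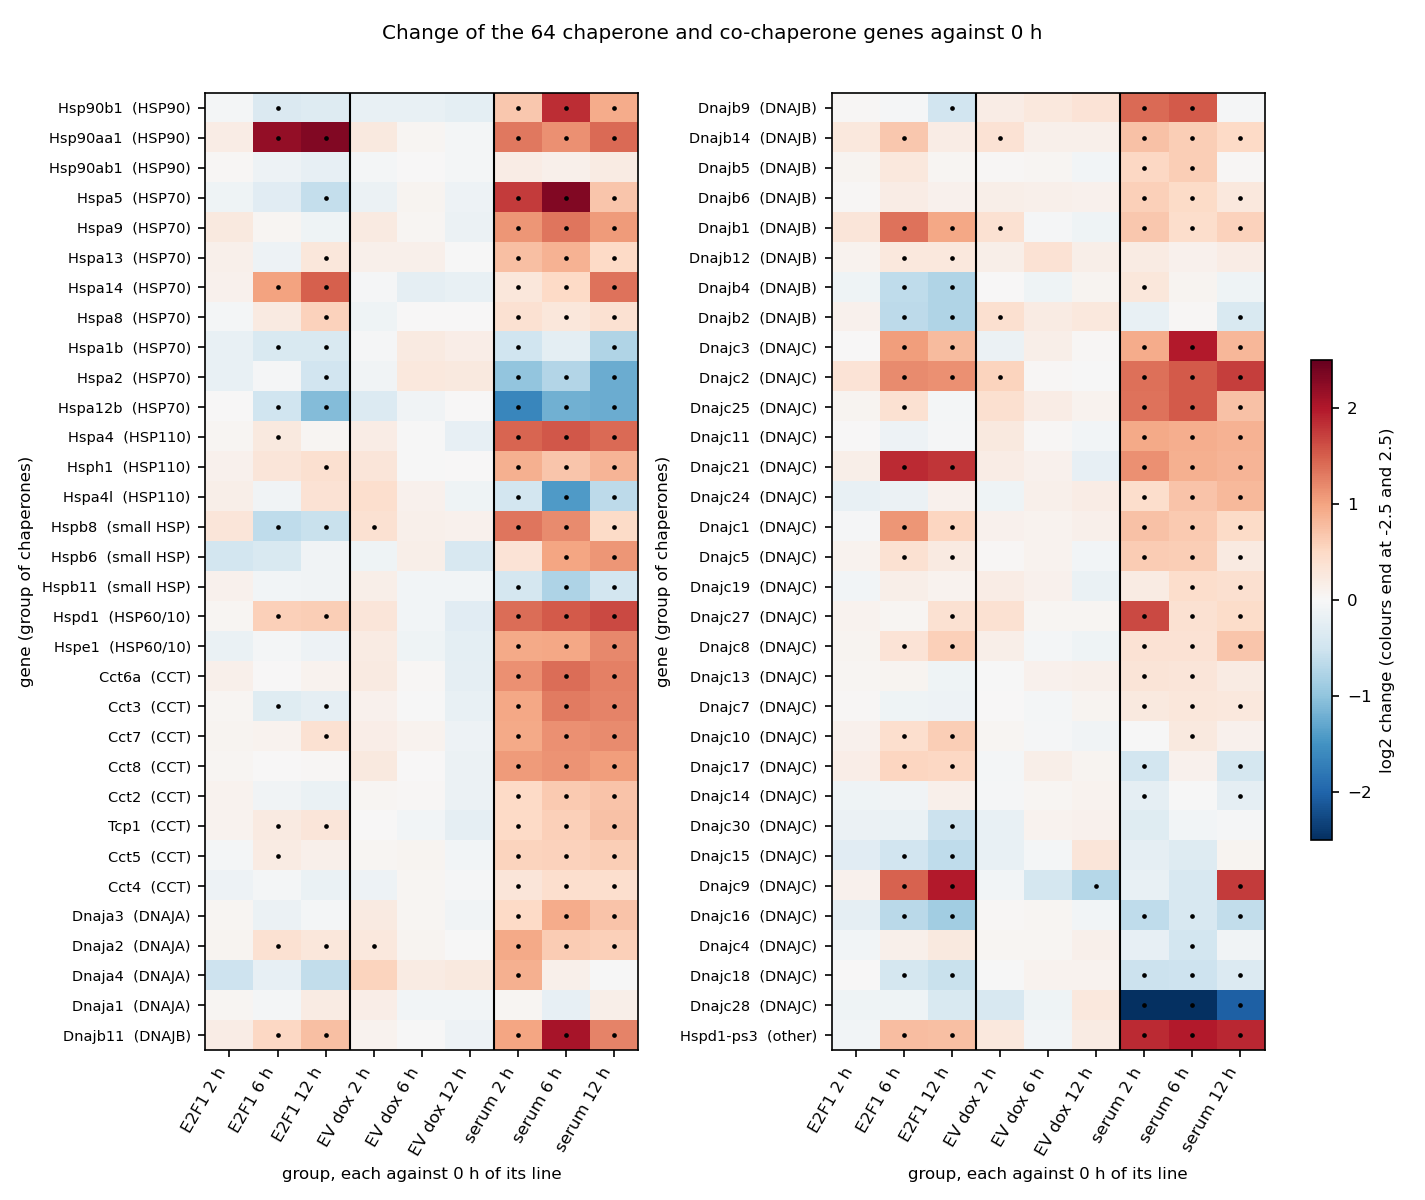
Log2 change of each of the 64 genes (rows, by chaperone group) in the 9 treated groups (columns), each against 0 h of its line; red is higher, blue is lower, and a dot marks an adjusted p under 0.05. The 3 serum columns hold most of the red, the EV doxycycline columns are nearly white, and the E2F1 columns hold both colours; at serum 2 h small red cells such as Cct4 turn under equal totals or quantile normalization.

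Hsp90aa1, which encodes the inducible cytosolic HSP90, had the largest rise of any member under E2F1. Its normalized counts in the E2F1 line were 18858 and 15871 at 0 h, 18959 and 20600 at 2 h, 83181 and 74992 at 6 h, and 90726 and 80780 at 12 h. Both libraries at 6 h and at 12 h lay above all 4 earlier ones, a gap that was not counted over all genes and adds no support. The change was 2.19 ± 0.11 at 6 h (SE; 4.57-fold; adjusted p = 2.65e-11) and 2.31 ± 0.11 at 12 h (4.95-fold; adjusted p = 1.98e-11). In the EV line doxycycline left the gene between 15090 and 21044 in all 8 libraries, and the difference between the lines' changes was 2.15 at 6 h and 2.34 at 12 h. Serum raised it less: 40335 and 41578 at 2 h, 36891 and 35472 at 6 h, and 46225 and 41451 at 12 h, changes of 1.32, 1.14 and 1.41. The E2F1 change exceeded the serum change by 1.05 at 6 h and by 0.89 at 12 h (adjusted p = 0.000113).

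Hsp90ab1, the constitutive cytosolic HSP90, was among the most abundant members and passed the test at no time against 0 h. It stood at 112753 and 102893 in the starved E2F1 line and at 94086 and 93628 after 12 h, a change of -0.20 (adjusted p = 0.0736). In serum at 12 h it was 133849 and 131567, against 110088 and 121324 at 0 h, a change of 0.20 (adjusted p = 0.0687). Its E2F1 change minus its serum change at 12 h was -0.40, which did pass the test. The sign of its small changes against 0 h turned with the scaling: 0.11 at E2F1 12 h with quantile normalization, and -0.19 at serum 2 h with equal totals. Hsp90b1, the HSP90 of the endoplasmic reticulum (GRP94), is given with that compartment below.

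**Figure D2:**
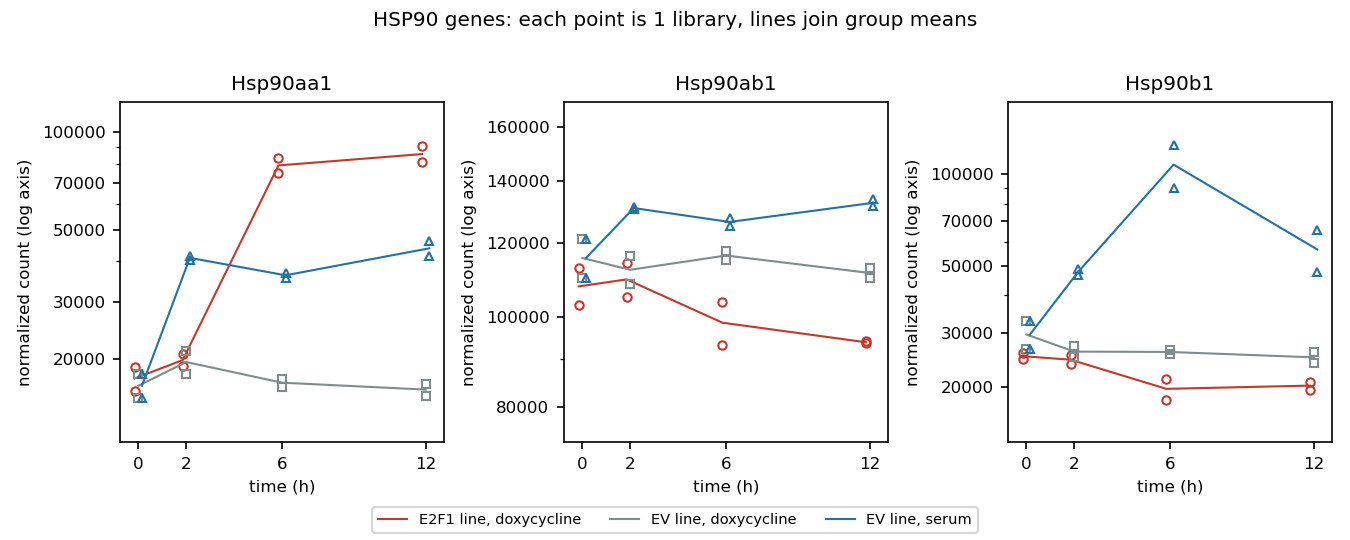
Normalized count (log axis, scaled separately in each panel) of the 3 HSP90 genes against time in hours; each point is 1 library, lines join the means of 2 libraries, and the EV libraries at 0 h serve both EV series. Hsp90aa1 separates the E2F1 line (74992 to 90726 at 6 h and 12 h) from serum (35472 to 46225), Hsp90b1 peaks in serum at 6 h, and the Hsp90ab1 panel spans a narrow range in which small directions depend on the scaling.

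Of the 8 HSP70 genes 5 rose and 3 fell at 2 h and 12 h of serum, and 5 rose and 2 fell at 6 h. At 2 h, 12 h and 6 h 37.5%, 36.0% and 36.5% of all genes rose, and 33.5%, 29.7% and 31.0% fell. Under E2F1 1 rose and 2 fell at 6 h (all genes: 28.8% and 22.9%), and 3 rose and 4 fell at 12 h (31.8% and 29.7%). Hspa14, a ribosome-associated HSP70-like protein, changed the most under E2F1: 1246 and 1104 at 0 h, 1166 and 1368 at 2 h, 2484 and 2214 at 6 h, and 3279 and 3336 at 12 h. These are changes of 1.00 ± 0.12 at 6 h and 1.49 ± 0.12 at 12 h (SE; adjusted p = 6.75e-09 at 12 h). Serum gave 1340 and 1322 at 2 h, 1489 and 1572 at 6 h, and 2739 and 2799 at 12 h, against 1002 and 1177 at 0 h. Its serum rise was thus mostly late, 0.86 between 6 h and 12 h, and the 12 h changes under E2F1 and serum differed by 0.15, which did not pass the test (adjusted p = 0.497). The read counting may mix Hspa14 with Gm45902, which overlaps its exons on the same strand.

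Hspa8, the constitutive cytosolic HSP70, rose under E2F1 at 12 h, from 43762 and 40284 to 61190 and 64664, by 0.58 ± 0.10 (SE; adjusted p = 4.04e-05). In serum it rose by 0.38, 0.29 and 0.39 at 2 h, 6 h and 12 h, of which the 2 h and 6 h calls were lost with equal totals and with quantile normalization, and the 2 h value turned to -0.04 with the latter. Hspa1b, a stress-inducible HSP70, went the other way. Its counts of 1597 and 1413 in the starved E2F1 line became 1166 and 1132 at 12 h, a fall by 0.39, and in serum it fell from 1505 and 1263 to 916 and 1031 at 2 h and 797 and 834 at 12 h. Hspa1a is a near-identical copy, and its reads may be split with Hspa1b. Hspa2, best known from the testis, fell by 0.98, 0.73 and 1.24 at the 3 serum times on the log2 scale. Hspa12b, a distant HSP70 relative known from endothelial cells, fell from 1327 and 1191 to 386 and 420 after 2 h of serum, by 1.64, and under E2F1 from 1423 and 1341 to 623 and 682 at 12 h, by 1.08.

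The HSP110 genes differed among themselves. Hspa4 (APG-2), a nucleotide exchange factor of HSP70, rose from 8815 and 9853 to 25911 and 25190 at 2 h of serum and stayed near that level, with changes of 1.45, 1.56 and 1.41. Under E2F1 it rose from 11662 and 10669 to 14125 and 12491 at 6 h, by 0.25 (adjusted p = 0.0266), a call lost with either other scaling and without either of 2 libraries. At 12 h it was 12039 and 10860, and the E2F1 and serum changes at 12 h differed by -1.37 (adjusted p = 1.47e-07). Hspa4l, its close relative, fell in serum, from 3231 and 3211 to 1426 and 1027 at 6 h, a change of -1.41 ± 0.19 (SE; adjusted p = 3.1e-06). Hsph1 (HSP105) rose by 0.88, 0.70 and 0.85 in serum and by 0.40 at E2F1 12 h, where the call was lost with either other scaling and without any of 3 libraries.

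All 8 CCT subunit genes rose at each serum time, with changes from 0.31 (Cct4, 2 h) to 1.39 (Cct6a, 6 h). Of all genes 37.5%, 36.5% and 36.0% rose at 2 h, 6 h and 12 h. Cct3 stood at 8223 and 9479 at 0 h, 17469 and 17054 at 2 h, 22674 and 20428 at 6 h, and 21142 and 20446 at 12 h. Cct6a went from 6208 and 7462 to 15097 and 14867, 18301 and 17380, and 16799 and 15551. For each of these 2 genes no serum library overlapped the 0 h libraries. The share of all genes with such a gap was not counted, so it adds no support. The subunits fell into a group with larger rises at 6 h (Cct3 1.29, Cct6a 1.39, Cct7 1.14, Cct8 1.13) and a group with smaller rises (Cct2 0.66, Tcp1 0.60, Cct5 0.57, Cct4 0.42). At 2 h the smaller rises depended on the scaling: with quantile normalization Cct2, Cct4 and Tcp1 changed by -0.06, -0.22 and -0.02.

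E2F1 moved the same genes little. At 12 h Cct7 rose by 0.39 ± 0.09 (SE; from 10415 and 9279 to 12614 and 13231; adjusted p = 0.000629) and Tcp1 by 0.30 (10837 and 10746, then 13373 and 13120; adjusted p = 0.00588, lost with quantile normalization). Cct3 fell by 0.23 (11238 and 10045, then 8850 and 9210; adjusted p = 0.0444, lost without either 12 h library), and at 6 h Cct5 rose by 0.21. The others at 12 h were Cct2 -0.16, Cct4 -0.17, Cct6a 0.08 and Cct8 0.03, none of them past the test. The E2F1 change was below the serum change at 12 h for all 8 subunits, from -0.43 (Tcp1) to -1.47 (Cct3), each past the test. Of all genes 23.8% were called below 0 in this comparison. Exons of Tcp1 overlap Acat3 and Mrpl18 and those of Cct6a overlap Psph, all on the opposite strand, and the strand setting of the counting is not given in the sources used here.

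**Figure D3:**
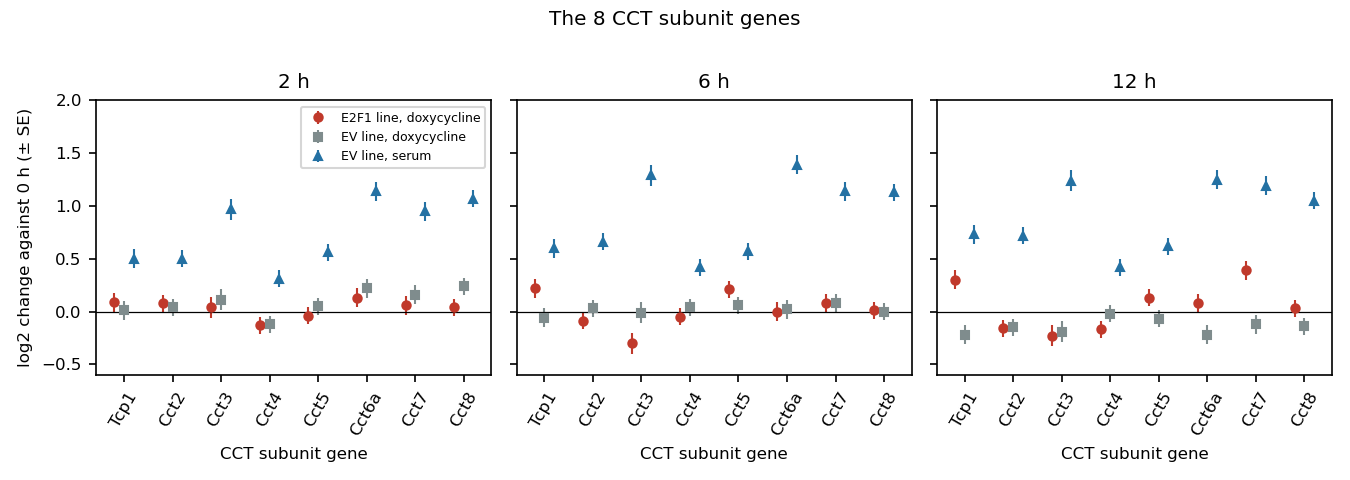
Log2 change against 0 h (± SE) of the 8 CCT subunit genes at 2, 6 and 12 h in the 3 series. The serum points lie from 0.31 to 1.39 and the E2F1 and EV doxycycline points near 0; at 2 h the serum values of Cct2, Cct4 and Tcp1 turn below 0 with quantile normalization.

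Several of the 12 members of the endoplasmic reticulum peaked at 6 h of serum. At 6 h of serum 10 of the 12 rose and 1 fell (all genes: 36.5% and 31.0%), with a median change of 1.19 beside 0.03 for all genes. Hspa5 (BiP), the HSP70 of this compartment and the regulator of its stress sensors, stood at 25674 and 29493 at 0 h, 91704 and 91898 at 2 h, 108208 and 172124 at 6 h, and 44448 and 44970 at 12 h. The 2 libraries at 6 h disagreed, and serum replicate 2 was the higher. The changes were 1.74, 2.31 ± 0.14 (SE; adjusted p = 1.28e-10) and 0.70. Hsp90b1 went from 26648 and 32886 to 48641 and 46554, 89739 and 124972, and 47788 and 65358, changes of 0.68, 1.84 and 0.92.

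Their J-domain partners followed. Dnajb11 (ERdj3), which hands nascent chains to BiP, went from 2882 and 3171 to 5849 and 6128, 10733 and 14898, and 6579 and 7796. Dnajc3 (p58IPK), a BiP co-chaperone that also inhibits the kinase PERK, went from 3763 and 4433 to 8266 and 7227, 12142 and 21632, and 7359 and 7189. Their changes at 6 h were 2.06 and 1.99. Dnajb9 (ERdj4), which takes part in degradation from this compartment, peaked at 2 h and 6 h with 2577, 2108, 1966 and 3298 and was back at 882 and 839 at 12 h, against 911 and 842 at 0 h. From 6 h to 12 h the falls were 1.61 for Hspa5, 1.56 for Dnajb9, 1.16 for Dnajc3, 0.92 for Hsp90b1 and 0.82 for Dnajb11 on the log2 scale. In all 5 genes serum 6 h replicate 2 was the higher library, so the height of the 6 h peak rests partly on it. Without it the further rise of Hspa5 from 2 h to 6 h, 0.57, was no longer past the test.

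Between serum 2 h and 6 h 12 of the 64 genes rose, a share of 18.8% against 24.3% of all genes, and between 6 h and 12 h 8 rose and 16 fell, against 19.3% and 20.6%. With equal totals 31 rose between 2 h and 6 h, and 16 rose and 11 fell between 6 h and 12 h. With quantile normalization these counts were 20, 14 and 14. Of all 11208 genes 4077, 3184 and 1392 did so with equal totals, and 2684, 2031 and 2123 with quantile normalization. Without any 1 of the 4 libraries compared, 3 to 5 rose between 6 h and 12 h. Hsp90b1, Dnajb11 and Dnajc3 were among the genes that still rose between 2 h and 6 h, by 1.15, 1.08 and 1.07.

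Under E2F1 the same compartment split. Of its 12 members 7 rose and 2 fell at 6 h (all genes: 28.8% and 22.9%), and 6 rose and 3 fell at 12 h (31.8% and 29.7%). The medians were 0.32 and 0.22. With the EV change under doxycycline taken off, 5 were higher and 1 lower at 6 h (22.2% and 12.3% of all genes). At 12 h 4 were higher and 2 lower (27.3% and 23.3%), and the medians of these differences were 0.04 and 0.09. Dnajc1 (ERdj1), a membrane J protein that contacts ribosomes, went from 1597 and 1853 at 0 h to 3818 and 3583 at 6 h and 2589 and 2421 at 12 h, changes of 1.10 ± 0.09 and 0.54 ± 0.09 (SE; adjusted p = 1.87e-08 at 6 h). Dnajc3 went from 4446 and 4192 to 9425 and 8450 and to 8104 and 6959, changes of 1.05 and 0.80. Dnajb11 rose by 0.52 and 0.76 and Dnajc10 (ERdj5), a disulfide reductase, by 0.42 and 0.61. Exons of Dnajc1 overlap Mllt10 on the opposite strand.

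Hspa5 and Hsp90b1, the main chaperones of the compartment, had values below 0 against 0 h. Neither was called at 6 h or 12 h once the EV change was taken off. Hsp90b1 was also lower in EV cells given doxycycline: 25706 and 26466 at 6 h, and 23964 and 26123 at 12 h. Its EV counts at 0 h were 26648 and 32886. For Hspa5 the EV counts were 25674 and 29493 at 0 h, 27658 and 29587 at 6 h, and 26548 and 24207 at 12 h. The values that follow are from the E2F1 line. Hspa5 was 26237 and 23874 at 0 h, 21210 and 19680 at 6 h, and 16760 and 16565 at 12 h, changes of -0.29 (adjusted p = 0.0883) and -0.59 ± 0.14 (SE; adjusted p = 0.00142). Hsp90b1 went from 25860 and 24678 to 21304 and 18180 at 6 h, by -0.36 (adjusted p = 0.0468), a call lost without any of 3 libraries, and to 20854 and 19614 at 12 h, by -0.32 (adjusted p = 0.0649). The difference between the E2F1 change and the serum change was -2.60 for Hspa5 and -2.20 for Hsp90b1 at 6 h, and -1.29 and -1.24 at 12 h. Dnajb9 fell by 0.48 at 12 h, a call lost without any of 3 libraries, and Dnajc16, a J protein of the membrane, fell by 0.67 and 0.86 (1202 and 1021, then 727 and 665, then 602 and 614). Of the 3 genes whose ER stress elements are printed above, Dnajc3 rose under E2F1, also with the EV change taken off. The values of Hspa5 and Hsp90b1 lay below 0 against 0 h, and neither was called with the EV change taken off.

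**Figure D4:**
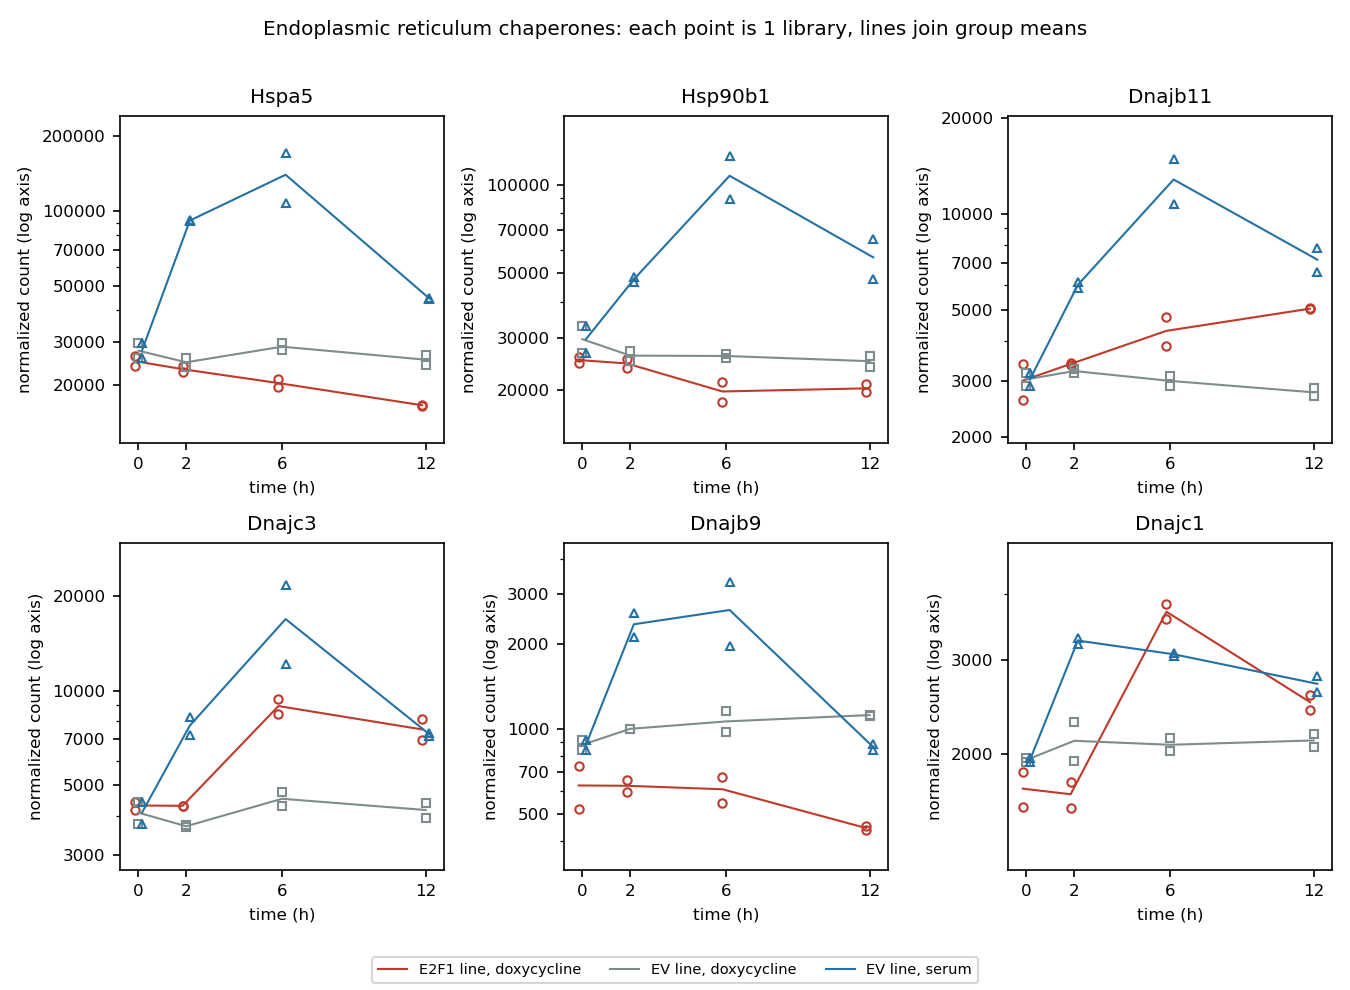
Normalized count (log axis, scaled separately in each panel) of 6 endoplasmic reticulum members against time in hours; each point is 1 library and lines join the means of 2 libraries. In serum Hspa5, Hsp90b1, Dnajb11 and Dnajc3 peak at 6 h with replicate 2 above replicate 1, while under E2F1 Hspa5 falls to 16760 and 16565 at 12 h and Dnajc1 peaks at 3818 and 3583 at 6 h.

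Several J-domain genes outside that compartment rose under E2F1. Dnajc9, which carries histones H3 and H4 as well as a J domain, went from 1502 and 1317 at 0 h to 1390 and 1647 at 2 h, 4001 and 3774 at 6 h, and 5467 and 5643 at 12 h. The changes were 1.47 ± 0.19 at 6 h and 1.98 ± 0.19 at 12 h (SE; 3.95-fold; adjusted p = 9.93e-08). In serum it was 886 and 716 at 2 h and 655 and 720 at 6 h, against 720 and 1146 at 0 h, changes of -0.19 and -0.40 that did not pass the test. At 12 h of serum it stood at 3387 and 2751, a rise by 1.75 against 0 h (adjusted p = 3.96e-07) and by 2.15 against 6 h. The E2F1 change exceeded the serum change by 1.87 at 6 h, and at 12 h the difference was 0.23 (adjusted p = 0.51). EV doxycycline lowered Dnajc9 at 12 h (471 and 645; -0.72), the only member called there, where 3.42% of all genes fell; the call was lost without EV 0 h replicate 2, whose count was 1146, without EV 12 h replicate 1, and with only the compared groups in the fit.

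Dnajc21, a J protein needed for late ribosome assembly, stood at 951 and 840 at 0 h, 942 and 1042 at 2 h, 3565 and 2954 at 6 h, and 3230 and 2978 at 12 h of E2F1. The changes were 1.86 ± 0.10 and 1.79 ± 0.10 (SE; adjusted p = 1.23e-10 at 6 h), and the EV line under doxycycline stayed between 604 and 878. In serum it was highest at 2 h, with 1592 and 1680, and its changes of 1.14, 0.89 and 0.85 were below those under E2F1 by 0.97 at 6 h and 0.94 at 12 h. Dnajc2 (MPP11, zuotin), the J protein of the ribosome-associated complex, rose in both: from 1262 and 1157 to 2884 and 2626 at 6 h and 3012 and 2368 at 12 h of E2F1, by 1.19 and 1.14, and from 863 and 1108 to 3414 and 3080 at 12 h of serum, by 1.73.

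Between 6 h and 12 h of E2F1 9 members rose, a share of 14.1% against 15.1% of all genes, with 2 to 5 without any 1 of the 4 libraries compared. Dnajb1 (HSP40), the main J partner of cytosolic HSP70, went from 1977 and 1890 to 5028 and 4826 at 6 h and 3779 and 3750 at 12 h of E2F1. The changes were 1.35 ± 0.11 and 0.96 ± 0.11 (SE; adjusted p = 1.31e-08 at 6 h), and those in serum were 0.68, 0.44 and 0.57. Dnajc8, known from spliceosome preparations, rose by 0.35 and 0.59 under E2F1 and by 0.36, 0.37 and 0.70 in serum; its serum 2 h value turned to -0.02 with equal totals. Dnaja1, another J partner of HSP70 in the cytosol, was called nowhere against 0 h, with changes of -0.04 and 0.21 under E2F1 and 0.04, -0.20 and 0.15 in serum.

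A smaller set of J-domain genes fell under E2F1. Dnajb2, known from neurons for keeping misfolded proteins soluble, went from 2344 and 2313 to 1593 and 1381 at 6 h and 1377 and 1384 at 12 h, by 0.65 and 0.75 (adjusted p = 1.43e-06 at 12 h). Dnajb4 went from 3079 and 3280 to 1994 and 2124 and to 1948 and 1839, falling by 0.63 and 0.75 (adjusted p = 3.74e-06 at 12 h). In both genes the E2F1 libraries at these times lay below the 0 h libraries. Such a gap was a condition for naming the largest falls, so it adds no support. Dnajc18 fell by 0.43 and 0.55 and Dnajc15, a subunit of the mitochondrial import motor, by 0.48 and 0.63. In serum Dnajb2 fell at 12 h, by 0.38, and Dnajb4 rose at 2 h by 0.28, a value that turned to -0.07 and -0.09 with the other scalings.

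The largest fall of any member was that of Dnajc28, a little-studied J protein placed in the mitochondrion. It stood at 310 and 239 in the EV line at 0 h, 26 and 4 at 2 h of serum, 16 and 37 at 6 h, and 69 and 62 at 12 h. The changes were -4.56 ± 0.52, -3.43 ± 0.52 and -2.04 ± 0.52 (SE; adjusted p = 3.24e-07, 1.35e-05 and 0.00224). The 2 h value rests on low counts: it was -3.34 without serum 2 h replicate 2 and -5.77 without replicate 1. Under E2F1 it was 132 and 191 at 12 h, against 225 and 192 at 0 h, a change of -0.39 that did not pass the test. Dnajc27 rose most at 2 h of serum, from 418 and 491 to 1324 and 1528, by 1.65, and then 574 and 607 at 6 h and 633 and 604 at 12 h.

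Of the 10 mitochondrial members 5 rose and 1 fell at 2 h of serum (all genes: 37.5% and 33.5%). At 6 h 6 rose and 2 fell (36.5% and 31.0%), and at 12 h 6 rose and 1 fell (36.0% and 29.7%). Under E2F1 Hspd1 rose and Dnajc15 fell at 6 h and at 12 h, where Dnajc30 fell too. Of all genes 28.8% rose and 22.9% fell at 6 h, and 31.8% and 29.7% at 12 h. Hspd1 (HSP60), the chaperonin of the matrix, went from 9830 and 12247 to 29632 and 28444 at 2 h, 32664 and 31247 at 6 h, and 36014 and 32769 at 12 h of serum, changes of 1.40, 1.54 and 1.65. Under E2F1 it went from 16410 and 15190 to 25566 and 22202 at 6 h and 25293 and 23115 at 12 h, changes of 0.59 and 0.61 (adjusted p = 7.71e-05 at 12 h). Its lid Hspe1 (HSP10), which shares the promoter shown above, rose in serum by 0.95, 0.96 and 1.21. Under E2F1 Hspe1 was 5122 and 4753 at 6 h and 4335 and 5025 at 12 h, against 5587 and 4657 at 0 h, changes of -0.05 and -0.13 (adjusted p = 0.74 and 0.332). The exons of the 2 genes overlap on opposite strands.

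Hspa9 (mortalin), the HSP70 of the matrix, rose from 8915 and 9358 to 19311 and 20075 at 2 h, 22294 and 23946 at 6 h, and 20432 and 17794 at 12 h of serum, changes of 1.11, 1.34 and 1.06. Under E2F1 its changes were 0.05 and -0.11, neither past the test, and the difference from serum at 12 h was -1.18. The pseudogene Hspd1-ps3, at 96 and 144 in the EV line at 0 h and 472 and 391 after 2 h of serum, resembles Hspd1 in sequence and may hold some of its reads.

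Of the 3 small heat shock protein genes, Hspb8, which works with Bag3 in selective autophagy, rose in serum and fell under E2F1. Its counts were 3587 and 3728 at 0 h, 9133 and 9378 at 2 h, 7835 and 8759 at 6 h, and 4957 and 5260 at 12 h of serum, changes of 1.34, 1.18 and 0.48. In the E2F1 line they were 4582 and 3779 at 0 h, 2935 and 2451 at 6 h, and 3140 and 2533 at 12 h, changes of -0.63 and -0.56 (adjusted p = 0.000213 at 12 h). Hspb6 rose in serum by 0.99 at 6 h and 1.10 at 12 h, and Hspb11 fell by 0.44, 0.77 and 0.46.

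Doxycycline alone moved few members. In the EV line 0 of 64 were called at 6 h (limma; 0.134% of all genes, and 3 members at an unadjusted p under 0.05). At 2 h 6 members rose, where 4.93% of all genes did: Dnajc2 by 0.56, Dnajb2 by 0.40, Dnajb1 and Hspb8 by 0.39, Dnajb14 by 0.37 and Dnaja2 by 0.27. Each of these 6 calls was lost without EV 2 h replicate 2, and with only the compared groups in the fit 1 member was called. In the E2F1 line at 2 h 0 of 64 were called in either direction (limma; 1.86% of all genes, and 6 members at an unadjusted p under 0.05), and for the difference between the lines at 2 h again 0 (0.143% of all genes, and 3 at an unadjusted p under 0.05).

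The lines already differed at 0 h: 8 members were higher in the E2F1 line, where 8.86% of all genes were. They were Hspa4l (5657 and 4117 against 3231 and 3211; 0.58), Dnajc9 (0.63), Hspd1 (0.52), Hspe1 (0.41), Hspa9 (0.39), Cct8 (0.32), Dnaja2 (0.28) and Dnajb14 (0.25). With equal totals 15 members were called, and 1 was without E2F1 0 h replicate 1, without EV 0 h replicate 1, or with only the compared groups in the fit. Of all 11208 genes 1345 were higher and 524 lower with equal totals. Hspd1, Hspe1 and Hspa9 are the main chaperones of the mitochondrial matrix.

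Taking the EV change under doxycycline from that of the E2F1 line left 16 members higher and 6 lower at 6 h (22.2% and 12.3% of all genes), and 18 higher and 11 lower at 12 h (27.3% and 23.3%). With quantile normalization the counts were 11 and 12 at 6 h and 14 and 15 at 12 h, and with equal totals 11 and 7 at 6 h. Of all 11208 genes 2068 and 2583 were higher and lower at 6 h with quantile normalization, and 2659 and 3457 at 12 h. With equal totals 2101 and 2251 of all genes were so at 6 h. The largest differences at 12 h were Dnajc9 at 2.70, Hsp90aa1 at 2.34, Dnajc21 at 2.00 and Hspa14 at 1.68 above, and Hspa12b at -1.09, Dnajb2 at -1.02 and Dnajc15 at -0.93 below. In all, 14 members (21.9%) were higher at both times, beside 18.3% of all genes.

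The E2F1 change minus the serum change was tested for each member. It passed the test above 0 for 12 members and below 0 for 29 at 6 h (30.3% and 27.6% of all genes), and for 8 and 31 at 12 h (25.0% and 23.8%). A value below 0 means a smaller rise or a larger fall under E2F1. The 2 changes also differ in the line and in doxycycline, and the EV change under doxycycline was not taken off here. Hsp90aa1, Dnajc21 and Dnajb1 were among 5 members called above 0 at both times (7.81%, against 19.7% of all genes); Dnajb1 exceeded serum by 0.91 at 6 h and 0.39 at 12 h, the latter a call (limma, adjusted p = 0.0477) that was lost without any of 7 libraries and with the replicate block. The other 2, Hspa2 and Hspa4l, are genes that serum lowered. Of the 23 members raised at E2F1 12 h, 20 (87.0%) were among the 41 raised at serum 12 h, or 48.8% of those. Over all genes these shares were 59.7% and 52.8%. Of the same 23, 1, Dnajc17, was lowered by serum, and the share over all genes was not counted. Dnajc17 was not called at 12 h with the EV change under doxycycline taken off. Of the 13 lower at E2F1 12 h than at 0 h, 3 (23.1%, against 19.2% over all genes) were raised by serum at 12 h: Cct3, Hspa5 and Hspb8. These 2 comparisons share no library. Of these 3 genes only Hspb8 was also called lower at 12 h with the EV change under doxycycline taken off.

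**Figure D5:**
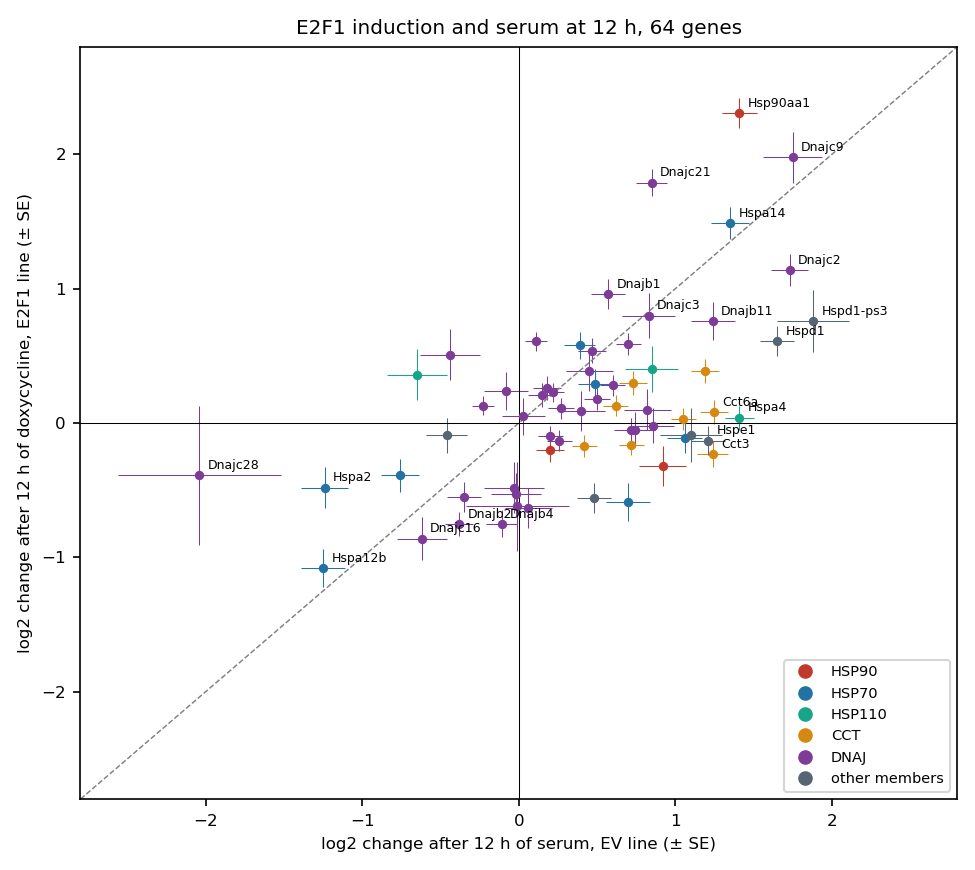
Log2 change after 12 h of doxycycline in the E2F1 line (vertical) against that after 12 h of serum in the EV line (horizontal) for the 64 genes; bars are ± SE, the dashed line marks equal changes, and the larger changes are named. Hsp90aa1 (2.31 and 1.41) and Dnajc21 (1.79 and 0.85) lie above the line, Dnajc9 (1.98 and 1.75) and Hspa14 (1.49 and 1.35) near it, and the CCT genes below it.

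Partners of these chaperones that the symbol rule leaves out were counted from 4 lists. Of 27 regulators and cytosolic co-chaperones in the table, 11 rose and 5 fell at E2F1 12 h (all genes: 31.8% and 29.7%). At serum 12 h 21 rose and 1 fell (36.0% and 29.7%). The medians were 0.16 and 0.54. Fkbp5, an HSP90 immunophilin of steroid receptors, rose by 2.10 and 2.20 at 6 h and 12 h of E2F1 and by 1.95 and 1.65 at 2 h and 12 h of serum, with a value of 0.15 at 6 h that did not pass the test. Ptges3 (p23), which closes the HSP90 cycle, rose by 1.05 and 1.34 under E2F1 and by 0.92 and 1.23 at 2 h and 12 h of serum. Bag3 fell by 0.71 and Unc45a, the HSP90 co-chaperone of myosin, by 0.67 at E2F1 12 h, while Bag2 rose by 2.26 at 2 h of serum. Hsf1, the heat shock regulator, changed by -0.04 at E2F1 12 h and rose by 0.70 at serum 2 h.

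Of 11 prefoldin subunits and CCT partners, 3 rose and 2 fell at E2F1 12 h (all genes: 31.8% and 29.7%) and 8 rose and 1 fell at serum 12 h (36.0% and 29.7%). Pfdn6 rose by 1.04 and 1.30 in these, and Pdcd5 by 0.57 in the first. Pdcl3, a phosducin-like protein that binds CCT, rose by 2.14 at serum 2 h and fell by 0.37 at E2F1 12 h.

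Of 17 genes of endoplasmic reticulum folding and the unfolded protein response, 16 rose and 1 fell at serum 2 h (all genes: 37.5% and 33.5%). At serum 6 h 15 rose (36.5%), and at 12 h 12 rose and 2 fell (36.0% and 29.7%). At 6 h of serum Sdf2l1 rose by 3.32, Hyou1 (an HSP110 of this compartment) by 2.95, Creld2 by 2.75 and Manf by 2.66. At E2F1 12 h 5 rose and 4 fell (all genes: 31.8% and 29.7%). Among the rises were Edem1 by 1.00 and P4hb by 0.62. Among the falls were Xbp1, a transcription factor of the response, by 1.50 and Calr by 0.93. At serum 2 h Xbp1 rose by 1.26.

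Of 11 mitochondrial partners, 1 rose and 2 fell at E2F1 12 h (all genes: 31.8% and 29.7%), and 8 rose at serum 12 h (36.0%). The falls were Trap1, the HSP90 of mitochondria, by 0.46 and Afg3l2 by 0.44 on the log2 scale. Grpel1, the nucleotide exchange factor of Hspa9, was among the serum rises, by 0.75. At serum 2 h Afg3l2 rose by 1.18 and Hscb fell by 1.13.

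The authors' deposited tables list only genes past a fold and an adjusted p of their own. In the authors' deposited table for E2F1, Hsp90aa1 is the only one of the 64, at a log2 fold change of 2.22 at 6 h and 2.32 at 12 h. In the authors' deposited table for serum, Dnajc28 stands at -4.49, -3.43 and -2.04 at the 3 times, and at 6 h Hspa5 at 2.32, Dnajb11 at 2.07 and Hspd1-ps3 at 2.01.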

How the data were processed

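RNA of NIH/3T3 cells was sequenced in 22 libraries of 11 groups. The mm10 build and the tools FastQC, Trimmomatic, HISAT2, featureCounts and DESeq2 are named in the submitters' processing notes; their settings and the strand setting are not given in the sources used here. The authors deposited 1 table of normalized counts rounded to whole numbers, treated here as a score and not as raw counts, so raw depth is unknown. The authors also deposited tables of log2 fold changes with adjusted p-values for the genes they list.

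Here log2(value + 1) was fitted with limma 3.58.1 (R 4.3.3) as 1 mean for each of the 11 groups, with the empirical Bayes variance following the mean. Tests were two-sided, and p-values were adjusted by Benjamini-Hochberg over all 11208 genes, with a threshold of 0.05, and the test was tried on simulated data first. Alternatives were other scalings, filters and fits, and leaving out each library. Members, gene lists and motifs were chosen with earlier results of these data known. Named genes are the main chaperones, the up to 5 largest rises and falls per comparison and the up to 2 per pathway list. The up to 5 were taken among called members whose libraries did not overlap between the groups compared. For differences of changes only the call was required. Other genes were named after their values were seen. Exon overlaps come from GENCODE M21 and promoters from RefSeq.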

Additional observations from a re-analysis of the deposited data

Results flagged for a closer look

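For 31 members, at 6 h, 12 h or both, the change of the E2F1 line under doxycycline differed from that of the EV line by the test of the difference itself (limma, adjusted p under 0.05, 2 libraries per group). That is 48.4% of the 64 members, below the 57.2% of all genes called in the same way. At 6 h and 12 h the differences were 2.15 and 2.34 for Hsp90aa1, 1.90 and 2.70 for Dnajc9, 1.22 and 1.68 for Hspa14, and 1.76 and 2.00 for Dnajc21. They were 1.37 and 1.06 for Dnajb1, 1.16 and 1.16 for Dnajc2, 0.65 and 0.90 for Hspd1, and 0.39 and 0.69 for Dnajc8. In the endoplasmic reticulum they were 0.54 and 0.89 for Dnajb11, 0.90 and 0.77 for Dnajc3, 1.01 and 0.42 for Dnajc1, and 0.44 and 0.69 for Dnajc10. Below 0 lay Dnajb2 at -0.85 and -1.02, Dnajb4 at -0.51 and -0.81, Dnajc16 at -0.71 and -0.80, and Dnajc18 at -0.52 and -0.62. Smaller ones at both times were 0.32 and 0.30 for Dnaja2, 0.29 and 0.28 for Dnajc5, -0.60 and -0.55 for Hspa1b, and -0.76 and -0.66 for Hspb8. Past the test at 6 h alone were Dnajb14 at 0.54 and Hspd1-ps3 at 0.84. At 12 h alone they were 0.58 for Hspa8, 0.52 for Cct7 and for Tcp1, 0.30 for Cct6a, -1.09 for Hspa12b, -0.93 for Dnajc15, -0.83 for Dnajb9, -0.73 for Hspa2 and -0.62 for Dnajc30. No group has 4 libraries, so single libraries were not tested for standing apart.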

How the results depend on the processing

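For single genes 391 values were checked. They hold every call of a member at E2F1 6 h and 12 h and at the serum times, with other values given here. Of these 363 were called, a share that follows partly from that choice. The call held under every alternative for 249 and was lost under at least 1 for 114. The cause was not tested. The 2 libraries per group limit these calls, and small changes depend on the scaling. With quantile normalization the sign turned at serum 2 h for Cct2 (-0.06), Cct4 (-0.22), Tcp1 (-0.02), Dnajb4 (-0.07), Dnajc13 (-0.05), Dnajc7 (-0.01), Hspa8 (-0.04), Dnaja1 (-0.41) and Hsp90ab1 (-0.56), at serum 6 h for Dnajc10 (-0.06) and Hsp90ab1 (-0.13), at serum 12 h for Dnaja1 (-0.03), at E2F1 6 h for Hspa9 (-0.14) and at E2F1 12 h for Hsp90ab1 (0.11), Cct6a (-0.12) and Cct8 (-0.14). With equal totals it turned at serum 2 h for Cct4 (-0.07), Dnajb4 (-0.09), Dnajc13 (-0.06), Dnajc7 (-0.13), Dnajc8 (-0.02), Hspa14 (-0.08), Dnaja1 (-0.33) and Hsp90ab1 (-0.19), at serum 6 h for Hsp90ab1 (-0.08) and Fkbp5 (-0.06), at E2F1 6 h for Hspa9 (-0.07) and at E2F1 12 h for Cct8 (-0.03). Leaving out 1 library at a time turned values that had not passed the test. At E2F1 6 h these ranged from -0.18 to 0.08 for Hspe1 (above 0 without E2F1 0 h replicate 1, or at 0.01 without 6 h replicate 2), from -0.09 to 0.19 for Hspa9 (below 0 without 0 h replicate 2, or at -0.07 without 6 h replicate 1) and from -0.12 to 0.05 for Dnaja1 (above 0 without 0 h replicate 1, or at 0.04 without 6 h replicate 2). At E2F1 12 h they ranged from -0.26 to 0.0032 for Hspe1 and -0.25 to 0.02 for Hspa9 (both above 0 without 0 h replicate 1), from -0.01 to 0.06 for Cct8 (below 0 without 0 h replicate 2) and from -0.08 to 0.01 for Hsf1 (above 0 without 12 h replicate 2, or at 0.0049 without 0 h replicate 1). Without EV 0 h replicate 1 or 2, Fkbp5 at serum 6 h ranged from -0.12 to 0.43, Dnajc9 at serum 2 h from -0.52 to 0.15 and the Dnajc9 difference between E2F1 and serum at 12 h from -0.10 to 0.57.

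Counts of all genes moved with the settings too, to 968 higher and 147 lower at E2F1 6 h with a 2-fold change required. Counts of members moved as follows, higher before lower. With a 2-fold change also required they were 7 and 0 at E2F1 6 h, 5 and 1 at 12 h, 14 and 2, 17 and 3, and 15 and 3 at the serum times, 7 and 0 at 6 h and 6 and 2 at 12 h for E2F1 minus EV, and 2 and 14, 4 and 17, and 1 and 12 at 2, 6 and 12 h for E2F1 minus serum. For the steps in time they were 0 and 0 (E2F1 6 h to 12 h), 3 and 1 (serum 2 h to 6 h), 2 and 3 (6 h to 12 h) and 3 and 3 (2 h to 12 h), and 0 for EV doxycycline 2 h higher and 12 h lower and for the lines at 0 h. With quantile normalization 21 fell at E2F1 6 h and 21 at 12 h, 12 were lower for E2F1 minus EV at 6 h, 10 and 26 differed for E2F1 minus serum at 2 h (5 and 40 as fitted), 20 and 3 moved from serum 2 h to 6 h, 14 rose from 6 h to 12 h, 26 from 2 h to 12 h (13 and 15 as fitted), and 1 was lower in the E2F1 line at 0 h. With equal totals 17 fell at E2F1 6 h, 18 at serum 2 h and 13 at serum 6 h, 16 and 21 differed for E2F1 minus serum at 2 h, 31 and 2 moved from serum 2 h to 6 h, 16 rose from 6 h to 12 h, 36 and 5 moved from 2 h to 12 h, and 15 were higher in the E2F1 line at 0 h. With only the compared groups in the fit 1 rose at E2F1 2 h and 1 at EV 2 h, 0 fell at EV 12 h, 3 fell from serum 2 h to 6 h, 3 rose from 6 h to 12 h and 1 was higher in the E2F1 line at 0 h. With a mean of at least 500 and with the replicate block 1 member was lower in the E2F1 line at 0 h.

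Leaving out 1 library at a time gave 5 to 9 falls at E2F1 6 h, 0 to 5 rises at EV 2 h, 0 to 4 falls at EV 12 h and 3 to 6 lower for E2F1 minus EV at 6 h. It gave 2 to 5 rises from E2F1 6 h to 12 h, 7 to 11 rises and 3 to 5 falls from serum 2 h to 6 h, 3 to 5 rises from 6 h to 12 h and 5 to 10 from 2 h to 12 h. For the lines at 0 h it gave 1 to 10 higher and 0 to 1 lower.

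The replicate block gave 25 rises and 14 falls at E2F1 12 h, and other counts of members moved with it by less than 1.5 times, apart from the lines at 0 h. Whether replicate numbers mark a shared batch was not tested. Deviations of same-numbered libraries correlated above 0.1 in 18 of 55 pairs of groups (range -0.277 to 0.455). Within 1 line these were 11 of 27 pairs (highest 0.455), and between the 2 lines 7 of 28 (highest 0.238).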
